A study of Mus musculus with 2 samples.

Results

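RNA of 4T1, a mouse mammary carcinoma cell line, was examined for 52 protein-coding genes of the splicing machinery among the 21911 genes listed. They were taken by name: symbols that begin with Srsf and a digit (11 SR proteins), with Hnrnp (20 hnRNPs), with Sf3a or Sf3b and a digit (9 subunits of the SF3A and SF3B complexes) or with Snrp (12 proteins of the small nuclear ribonucleoproteins, snRNPs). One group of cells received PBS and the other potassium oxalate, both for 48 h, with 1 library each. The dose is 20 mM in the treatment protocol and 20 µM in the sample characteristics. Each gene has 1 FPKM value per library (fragments per kilobase of transcript, scaled to library size). Genes of different length can be compared on this scale as far as the length taken for each holds. With 1 library per condition no difference has a replicate check, no test of the conditions was possible, and all changes below are descriptions of 2 libraries.

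The spacing of low FPKM values gave estimated depths of 56700000 reads (PBS) and 36500000 reads (oxalate). The epithelial markers Krt8, Krt18, Krt19, Epcam, Cdh1 and Krt14 lay between 74.61 and 401.94 FPKM with PBS and between 71.09 and 429.31 with oxalate. Of the leukocyte markers, Ptprc and Cd3e were listed at 0 in both libraries, Lyz2 was at most 0.04 FPKM and Cd68 was at 7.79 and 7.11. The 3 endothelial markers summed to 0.08 and 0.09 FPKM. Of the 4 fibroblast markers, Col1a1 was at 143.48 and 144.61 FPKM, and Pdgfra, Pdgfrb and Dcn were at most 1.93.

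Splicing removes introns from pre-mRNA. The U1 snRNP reads the 5′ splice site, and the U2 snRNP pairs with the branch point, where SF3A and SF3B hold it in place. Each of these particles is built on a ring of Sm proteins, which the Snrp genes encode together with proteins particular to U1 or U2. SR proteins bind exons and promote their inclusion, whereas many hnRNPs bind silencers and oppose it, so that the ratio of both families sets many alternative exons. SR and hnRNP genes also control themselves, through exons or introns that send their own transcripts to nonsense-mediated decay.

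All members but 1 were expressed. The comparison took genes that averaged 1 FPKM or more over both libraries, here called expressed. These were 51 members, and Srsf12, an SR-like gene, was listed at 0 in both. The 52 genes summed to 7554.72 FPKM with PBS and 7145.26 FPKM with oxalate, which was 1.33% and 1.28% of each library's total. Of the 51 genes 41 were lower and 10 higher with oxalate. Among all 10267 expressed genes, 49.0% were lower and 50.6% higher. The median log2 fold change, log2((oxalate + 1)/(PBS + 1)), was -0.076 for the members and 0.0031 for all expressed genes. Of the 38 members averaging 50 FPKM or more 29 were lower, against 52.9% of the 2109 genes at such levels. The shifts were small: 36 members lay within 10% of their PBS value, 14 were more than 10% below it (15.9% of all genes) and 1 was more than 10% above it (17.2% of all genes). In bulk RNA, fewer cells with a transcript and less of it per cell cannot be told apart. The plot of levels sets both libraries side by side for each gene.

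**Figure D1:**
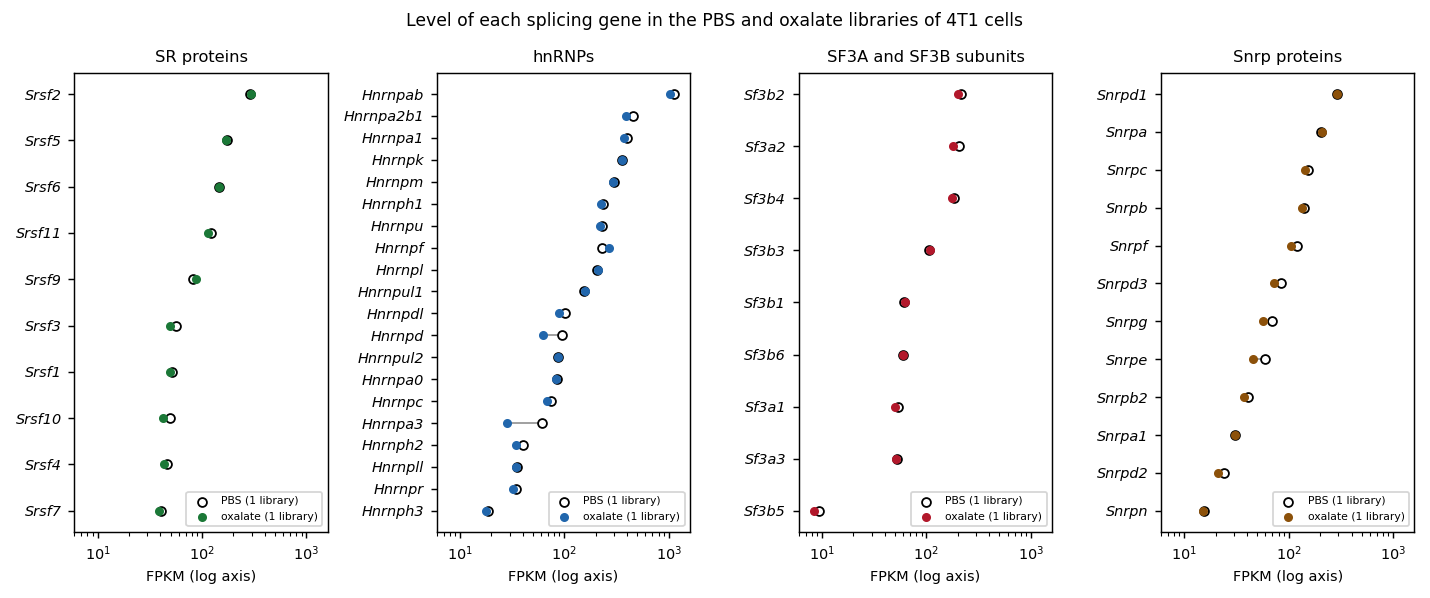
Each row is 1 gene, ordered within its class by PBS level. Open circles give the PBS library and filled circles the oxalate library, in FPKM on a log axis. Most pairs overlap, and Hnrnpa3 (61.59 and 28.09 FPKM) and Hnrnpd (95.05 and 62.76 FPKM) stand apart.

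At 2-fold or more, 1 member was lowered and 0 were raised, against 0.36% and 0.292% of expressed genes (0.653% either way). At 1.5-fold, 2 members were lowered and 0 raised (expressed genes, 1.05% and 0.935%, or 1.99% either way). At 1.2-fold, 4 members were lowered and 0 raised (expressed genes, 5.19% and 4.75%, or 9.94% either way). Counts past a fold were thus few, and most of the lower members were lower by less. Error from counting reads was estimated for each gene as an exact (Clopper-Pearson) 95% interval of the oxalate to PBS ratio, which covers counting error only and says nothing of culture or library differences. The members held between 1478 and 122685 estimated reads in the PBS library, and the median half-width of the interval was 0.048 on the log2 scale. The interval lay below 0 for 33 members, above 0 for 3 and held 0 for 15. Of all genes with a known length it lay below 0 for 23.8%, above 0 for 25.0% and held 0 for 51.2%. Of the 38 members averaging 50 FPKM or more it lay below 0 for 24 and above 0 for 3, against 35.2% and 30.8% of all such genes. Genes with near-identical copies are uncertain, since reads of both can be split. Of the 52 members 16 share at least 10% of the 50-base windows of their coding transcripts with another annotated gene and 16 share none. The shares were 49.3% for Sf3b4, 23.6% for Srsf5, 21.7% for Snrpn, 21.6% for Hnrnpm (with March2, which overlaps it on the same strand), 21.3% for Snrpf and 20.8% for Hnrnpk. They were 18.9% for Snrpa, 18.1% for Snrpg, 16.7% for Snrpc, 15.9% for Hnrnph2, 11.7% for Snrpd2 and 11.4% for Srsf10, and those of Hnrnpa1, Hnrnpa3, Hnrnpf and Srsf3 are given below. The values of all 16 are uncertain to that extent.

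**Figure D2:**
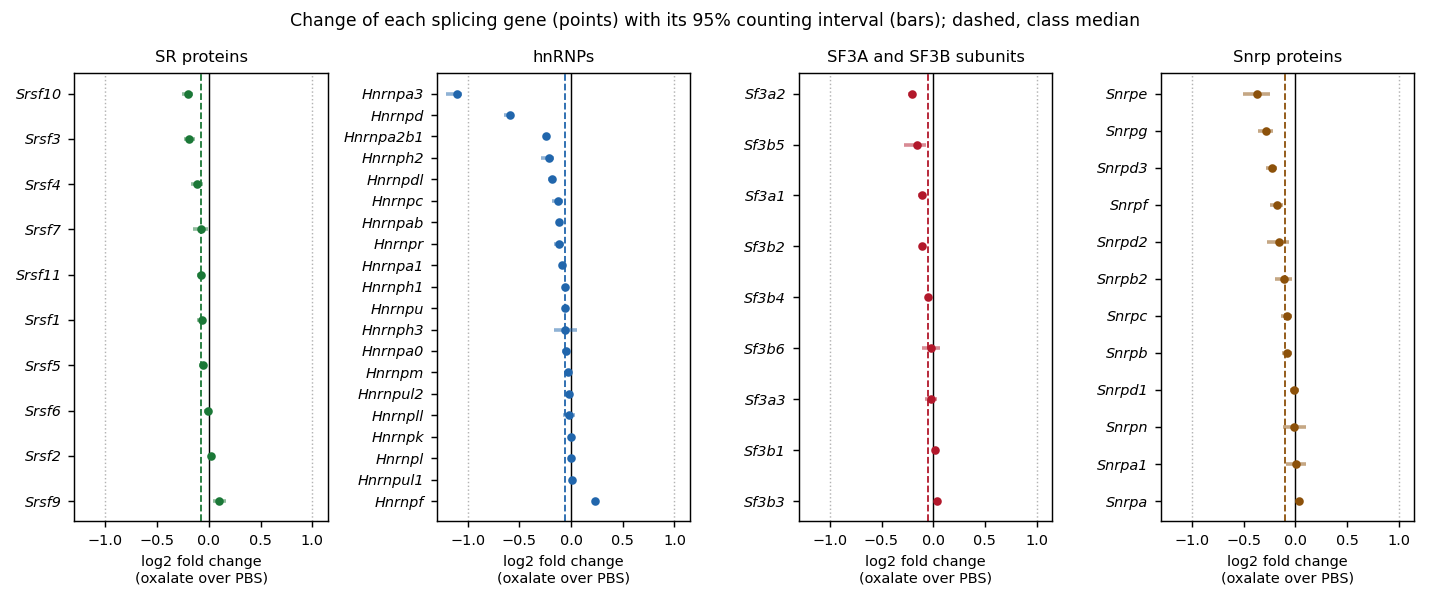
Points give the log2 fold change of each gene (oxalate over PBS, pseudocount 1), bars its 95% counting interval on the log2 ratio without a pseudocount, and dashed lines the class median. Dotted lines mark 2-fold. Class medians lie between -0.097 (Snrp proteins) and -0.048 (SF3 subunits), and Hnrnpa3 alone passes 2-fold.

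The hnRNPs held the widest range. Of 20 genes 16 were lower and 4 higher, with a median log2 fold change of -0.060. The class sum went from 4317.36 to 4056.62 FPKM, a difference of -6.04%. Hnrnpab, an RNA-binding protein placed here with the A/B type by its symbol, was the most abundant member. It was at 1114.92 FPKM in PBS cells and 1027.4 in oxalate cells (log2 fold change -0.12). The next in level were Hnrnpa2b1, Hnrnpa1, Hnrnpk and Hnrnpm.

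All 5 genes whose symbols begin with Hnrnpa, grouped here as the A/B type, were lower. The grouping is by name and does not give them 1 shared function. Hnrnpa3 (ENSMUSG00000059005, chromosome 2, 75659261 to 75669407, GRCm38) went from 61.59 to 28.09 FPKM, 2.19-fold lower as a plain ratio, with a log2 fold change of -1.11. Its counting interval, on the plain log2 ratio, ran from -1.205 to -1.059. It was the 30th lowest of the 10267 genes by fold change. In its coding transcripts 27.7% of 50-base windows also occur in transcripts of 43 other genes, mainly the pseudogene Gm5641, so that its value is uncertain. Hnrnpa2b1, whose product also sorts RNA for transport, was at 459.45 and 389.26 FPKM (here and below, the PBS value first), a log2 fold change of -0.24. Hnrnpa1, the prototype silencer-binding hnRNP, was at 396.29 and 373.34 FPKM (-0.086), and 46.7% of its windows recur in 19 other genes. Hnrnpa0 was nearest to its PBS level, at 86.21 and 83.38 FPKM (-0.048). These genes thus differed from each other in how far they moved, and only Hnrnpa3 passed 1.2-fold among them.

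Hnrnpd encodes AUF1, which binds AU-rich elements and governs mRNA decay. Hnrnpd (chromosome 5, 99955935 to 99978938) went from 95.05 to 62.76 FPKM, 1.51-fold lower with a log2 fold change of -0.59 and a counting interval from -0.65 to -0.55. It was the 105th lowest gene by fold change. Hnrnpdl, its relative, lies 54639 bases away on the same strand and was at 101.35 and 89.26 FPKM (-0.18). Both were lower, Hnrnpd by more. The deposited values hold no transcript forms. Of the genes past 1.5-fold, Hnrnpa3 and Hnrnpd have 6 coding transcripts each in the GENCODE annotation, with lengths from 754 to 5150 bases and from 478 to 6811 bases. The coding exons that some of their transcripts skip are shown because a gene value sums over forms with and without them. None was found for Hnrnpa3. Hnrnpd has 2, and Hnrnpa2b1, next among hnRNPs in the size of its change, has 2 as well. They are given in full in the sense of the transcript (GRCm38, GENCODE sequences), all on the minus strand:
Hnrnpd, chr5:99976534-99976590, 57 bases: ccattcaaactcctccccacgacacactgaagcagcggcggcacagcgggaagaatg
Hnrnpd, chr5:99963731-99963877, 147 bases: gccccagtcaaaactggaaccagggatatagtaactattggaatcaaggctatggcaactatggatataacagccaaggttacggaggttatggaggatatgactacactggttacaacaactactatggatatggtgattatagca
Hnrnpa2b1, chr6:51467391-51467426, 36 bases: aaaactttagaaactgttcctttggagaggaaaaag
Hnrnpa2b1, chr6:51464428-51464547, 120 bases: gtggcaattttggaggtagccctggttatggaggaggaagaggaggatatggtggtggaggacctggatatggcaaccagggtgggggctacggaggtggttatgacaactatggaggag
All 4 have a length divisible by 3, so skipping keeps the frame. Each Hnrnpd exon is in 2 of the 6 coding transcripts and is skipped in 2 others. The 36-base exon of Hnrnpa2b1, which separates the B1 protein from A2, is in 1 of its 6 coding transcripts. Coding exons that are skipped in some transcripts, in frame or not, were found in 7 of the 20 hnRNP genes, 2 SR genes, 1 Snrp gene and 0 SF3 genes. Of these 13 exons 10 keep the frame, and those of Srsf9, Hnrnph3 and Snrpe do not. A gene with 1 annotated coding transcript, as 16 members have, cannot show such an exon. The share over all genes was not counted, so these counts do not set the classes or the members apart.

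The F/H type, which reads runs of G, split in direction. Hnrnpf (chromosome 6, 117900324 to 117925622) was higher, at 228.88 and 269.14 FPKM. Its log2 fold change of 0.23 was the largest rise of all members. Its counting interval ran from 0.20 to 0.27. It ranked 626th among rises in the table, and 36.8% of its windows recur in 7 other genes. Hnrnph1 was at 236.98 and 227.23 FPKM (-0.060), Hnrnph2 at 40.1 and 34.35 (-0.22) and Hnrnph3 at 18.52 and 17.8 (-0.054). The 3 H genes were thus lower while Hnrnpf was higher, with PBS levels of Hnrnph1 and Hnrnpf close to each other. For Hnrnph3 the counting interval held 0 (-0.167 to 0.053), so its direction is not set even by counting.

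None of the remaining hnRNPs passed 1.2-fold. Hnrnpk, which binds runs of C, was at 354.45 and 355.24 FPKM, and Hnrnpl, which binds CA repeats, at 208.22 and 208.77. Hnrnpm was at 296.55 and 290.51 FPKM (-0.030). Hnrnpu, a nuclear scaffold protein, was at 230.08 and 220.88 (-0.059), and its relatives Hnrnpul1 (156.27 and 157.22) and Hnrnpul2 (87.86 and 86.89) differed by less. Among the lower genes were Hnrnpc, which binds runs of U, at 74.61 and 68.27 FPKM (-0.13), and Hnrnpr at 34.87 and 32.11 (-0.12). Hnrnpll, known for CD45 exons in lymphocytes, was at 35.11 and 34.72 FPKM. Without Hnrnpa3 and Hnrnpd, the median of the other 18 hnRNPs was -0.056, with 14 lower, so the direction of the class did not rest on those 2.

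The Snrp proteins had a median of -0.097, with 10 of 12 genes lower, and their sum went from 1233.06 to 1161.22 FPKM. The 7 genes of the general Sm ring, Snrpb, Snrpd1, Snrpd2, Snrpd3, Snrpe, Snrpf and Snrpg, were all lower, with a median of -0.18 and a summed level that went from 789.52 to 724.32 FPKM. Snrpe (chromosome 1, 133603871 to 133610291) was at 59.11 and 45.53 FPKM, a log2 fold change of -0.37 with a counting interval from -0.51 to -0.25. Snrpg (chromosome 6, 86371304 to 86379328) was at 69.78 and 57.04 FPKM (-0.29, interval -0.37 to -0.22). These were the only Sm genes past 1.2-fold. Snrpe has 5 coding transcripts of 75 to 669 bases, a length range over which FPKM depends on the form counted. Snrpd3 was at 85.19 and 72.66 FPKM (-0.23), Snrpf at 119.9 and 105.84 (-0.18) and Snrpd2 at 23.8 and 21.2 (-0.16). Snrpb was at 141.16 and 133.51 FPKM (-0.080), and Snrpd1, the most abundant Snrp gene, was at 290.58 and 288.54 (-0.010). The counting interval of Snrpd1 held 0 (-0.054 to 0.034). The ring thus graded from Snrpe, the lowest relative to PBS, to Snrpd1, which was near its PBS level. By FPKM, Snrpd1 was the highest of the ring and Snrpd2 the lowest in both libraries. The ring genes are short, with a median length of 1055 bases. Against the median of expressed genes of similar length (10 bins, described below), Snrpd1 was higher (0.046). The other ring genes were still lower, from -0.071 for Snrpb to -0.31 for Snrpe. The part of length in these changes was not tested.

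The Snrp genes for proteins particular to U1 and U2 ranged from -0.11 to 0.037, within which Snrpb and Snrpd1 of the ring also lay. Snrnp70, a U1 protein whose symbol falls outside the rule, was just below that range at 521.77 and 480.09 FPKM (-0.12). Its counting interval (-0.151 to -0.089) lay within that of Snrpb2 (-0.197 to -0.03), the lowest gene of the range. Snrpa, which binds a stem-loop of U1 snRNA, was at 203.38 and 208.62 FPKM (0.037), and Snrpc, which steadies the pairing with the 5′ splice site, at 153.53 and 144.83 (-0.084). For U2, Snrpa1 was at 30.46 and 30.49 FPKM and Snrpb2 at 40.77 and 37.67 (-0.11). Snrpa1 overlaps Gm45213 on the same strand, so its value is uncertain. Snrpn, the imprinted relative of Snrpb known from neurons, was at 15.4 and 15.29 FPKM. It shares its locus and strand with Snurf, and its value is uncertain too.

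SR proteins were lower in 8 of the 10 genes expressed, with a median of -0.073, and none passed 1.2-fold. The class sum went from 1056.7 to 1031.43 FPKM, a difference of -2.39%. Srsf2, which reads exonic enhancers, was the most abundant at 288.16 and 292.14 FPKM (0.020). The close relatives Srsf5 and Srsf6 followed at 174.67 and 168.07 FPKM (-0.055) and at 146.83 and 145.92 FPKM (-0.009). Srsf11, an SR-like protein, was at 120.72 and 114.45 FPKM (-0.076), and Srsf9, a shorter relative of Srsf1, at 81.63 and 87.72 (0.10). Srsf9 was the largest rise, with a counting interval from 0.037 to 0.17. Srsf10, an SR-like protein that represses splicing when dephosphorylated, was the largest fall at 49.07 and 42.58 FPKM (-0.20, interval -0.26 to -0.15). Next came Srsf3, the smallest SR protein and an adaptor for mRNA export, at 56.26 and 49.31 FPKM (-0.19), of whose windows 31.5% recur in 5 other genes. Srsf4, of the Srsf5 and Srsf6 branch, was at 46.72 and 43.23 FPKM (-0.11). Srsf1, the founding SR protein, was at 51.92 and 49.45 FPKM (-0.069) and Srsf7, an export adaptor with a zinc knuckle, at 40.72 and 38.56 (-0.077). Srsf3 and Srsf10 were thus the only SR genes more than 10% below PBS.

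The SF3 genes had a median of -0.048, with 7 of 9 lower and none past 1.2-fold. All 3 SF3A genes were lower. Sf3a2, the largest fall, was at 207.01 and 179.54 FPKM (-0.20, counting interval -0.25 to -0.16), Sf3a1 at 53.45 and 49.54 (-0.11) and Sf3a3 at 52.1 and 51.32 (-0.021). Of SF3B, Sf3b2 was the most abundant at 215.74 and 200.58 FPKM (-0.10), before Sf3b4, which contacts RNA upstream of the branch point, at 182.6 and 176.63 (-0.048). Sf3b3, a scaffold of the complex, was the largest rise at 106.14 and 109.02 FPKM (0.038). Sf3b1, which clamps the branch helix and is recurrently mutated in myelodysplastic syndromes, was at 61.05 and 61.91 FPKM (0.020). Sf3b6, which sits at the branch adenosine, was at 60.06 and 59.1 FPKM (-0.023). Sf3b5 had the lowest FPKM, at 9.45 and 8.35 (-0.16, interval -0.28 to -0.074). Its 1 annotated coding transcript has 3841 bases, against a mean of 757 for Sf3b6, so its rank by FPKM depends on the length used. The branch-point contacts Sf3b1 and Sf3b6 were thus among the genes nearest to PBS, and Sf3a2 and Sf3b5 the farthest below it.

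**Figure D3:**
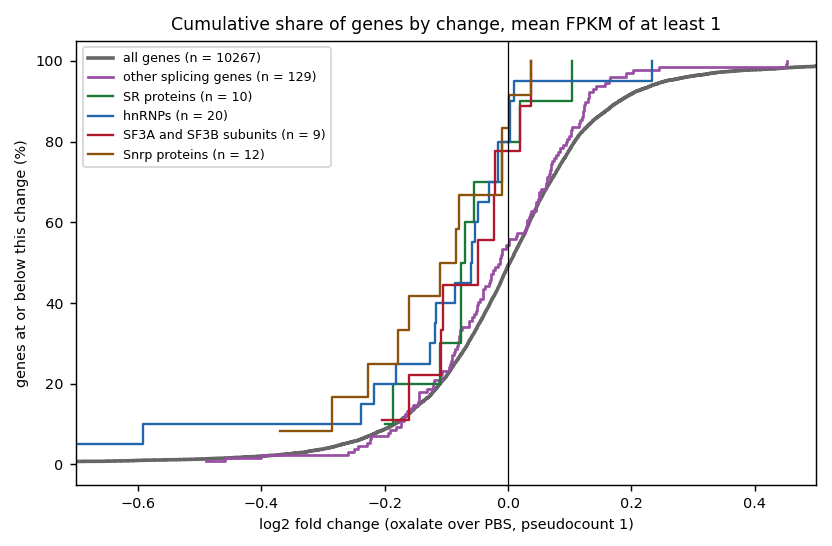
Cumulative share of genes (%) against log2 fold change, for expressed genes. Of all expressed genes 49.0% lie below a change of 0, of the other splicing genes 54.3%, and of the 4 classes between 77.8% and 83.3%. The axis is cut on the left, and Hnrnpa3 at -1.11 lies outside it.

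The direction of the members was set against base composition, length and number of transcripts. For this the expressed genes were split into 10 bins of equal size. Over all genes the change was higher at higher GC content, with bin medians of -0.066 at the lowest and between 0.028 and 0.035 in the highest 3. Of the 51 members 26 were in the lowest 3 bins and 8 in the highest 3. Taken against the median of their own GC bin, 40 members were still lower and 11 higher, with a median of -0.074. By class, the medians on this scale were -0.035 for SR proteins, -0.040 for hnRNPs, -0.082 for SF3 subunits and -0.11 for Snrp proteins. Against bins of transcript length, 40 members were lower and 11 higher, with a median of -0.080. Within GC bins the medians of SR proteins and hnRNPs were thus nearer to 0 than without them, and those of SF3 subunits and Snrp proteins farther from it. The part of GC content in the changes was not tested. Across the 51 members, which share both libraries, the change correlated with GC content at a Spearman rho of 0.255 and a Pearson r of 0.185, and over all 10261 genes with a known length at 0.202 and 0.129.

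**Figure D4:**
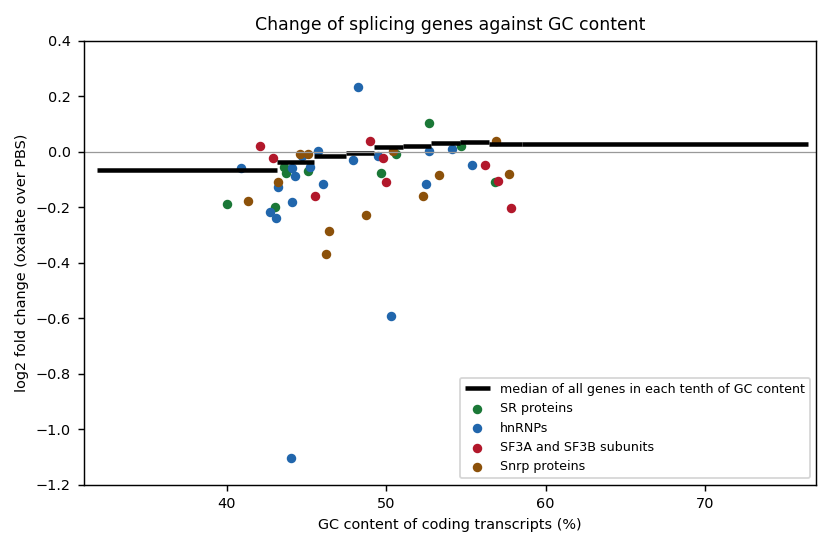
Log2 fold change of each member (points) against the GC content of its coding transcripts (%), with the median of all expressed genes in each of 10 GC bins as bars. Bars run from -0.066 to 0.035, and 40 of the 51 points lie below the bar of their bin.

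Of 17 members with 4 or more coding transcripts 3 passed 1.2-fold (Hnrnpa3, Hnrnpd and Snrpe), of 18 with 2 or 3 none did, and of 16 with 1 only Snrpg did. Among all genes the shares were 12.9%, 9.72% and 6.16%. The medians of the members were -0.084, -0.057 and -0.069 in the same order. How the reads of a gene with several transcripts were shared out was not tested.

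Transcripts that end in nonsense-mediated decay are annotated for 24 of the 51 members (47.1%), against 30.5% of all 10232 expressed protein-coding genes. By class these were 9 of 10 SR genes, 10 of 20 hnRNPs, 4 of 12 Snrp genes and 1 of 9 SF3 genes. Srsf10 was the SR gene without one. A retained intron is annotated for 38 members (74.5%), against 62.2% of those genes. The median change was -0.064 for members with a decay transcript and -0.105 for the 27 without. Over all expressed protein-coding genes these medians were 0.007 and 0.001. Within the hnRNPs the order was the other way, at -0.072 with one and -0.054 without. The part of decay transcripts in the changes was not tested.

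Other genes of splicing were taken from a list of 134, of which 133 were matched (Ddx39a was not) and 129 were expressed. Of these 70 were lower and 59 higher, with a median of -0.013, beside 0.0031 for all expressed genes. None passed 1.5-fold, against 1.99% of all expressed genes. At 1.2-fold 2 were raised and 3 lowered (expressed genes, 4.75% and 5.19%). Among 50 snRNP proteins and spliceosome factors 28 were lower (median -0.014), the largest fall being Lsm8, of the U6 ring, at 27.06 and 19.42 FPKM (-0.46) and the largest rise Snrnp35, of the minor spliceosome, at 3.85 and 5.63 (0.45). The SR-related proteins were lower in 9 of 12 genes (median -0.036), from Srek1 at 19.86 and 17.58 FPKM (-0.17) to Son, a nuclear speckle protein, at 16.33 and 17.89 (0.12). Among 10 kinases and importers of SR proteins and hnRNPs 6 were lower (median -0.060). Tnpo1, the importer of hnRNP A1 in this group, was the largest fall of the list at 57.45 and 40.64 FPKM (-0.49), and the kinase Dyrk1a the largest rise of its group at 19.46 and 22.53 (0.20). Of 33 other RNA-binding regulators 17 were lower (median -0.0030), between Tial1 at 25.98 and 19.43 FPKM (-0.40) and Rbfox2, which binds GCATG, at 7.63 and 10.81 (0.45). The decay and exon junction genes had a median above 0, with 6 of 14 lower and a median of 0.051, from Upf3b at 34.31 and 29.94 FPKM (-0.19) to Smg9 at 65.25 and 71.44 (0.13).

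Promoter sequences (RefSeq, GRCm38.p6, 250 bases before to 50 after the start) were matched for 46 of the 52 members, in 63 windows. They were searched on both strands for CCAAT, the box of NF-Y, TATAAA, the E-box CACGTG, the GC box GGGCGG, the ETS element CCGGAAGT and 10-base elements of YY1 and NRF1. The GC box was in 68.3% of the members' windows and in 35.7% of all 32851 windows. For the ETS element these were 17.5% and 3.89%, for CCAAT 44.4% and 37.4%, for the E-box 11.1% and 7.15%, and for TATAAA 11.1% and 13.6%. The YY1 and NRF1 elements were in 1.59% of members' windows each, against 0.852% and 0.971%. By gene, the GC box was in 33 of the 46 members matched and the ETS element in 9. A gene can have several windows, and the 32851 windows were not limited to expressed genes. These shares thus do not set splicing genes against other expressed genes. The 250 bases before the RefSeq start are given for the 4 members past 1.2-fold, since these are the genes with the largest changes, in the sense of the gene and with matches in capitals:
Hnrnpa3, chr2:75659009-75659258, plus strand: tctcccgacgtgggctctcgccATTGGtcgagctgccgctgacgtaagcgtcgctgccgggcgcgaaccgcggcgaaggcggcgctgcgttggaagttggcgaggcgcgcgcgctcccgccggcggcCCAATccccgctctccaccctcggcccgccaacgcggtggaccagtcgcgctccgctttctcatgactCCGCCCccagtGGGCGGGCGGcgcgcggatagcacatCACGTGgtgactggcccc
Hnrnpd, chr5:99978939-99979188, minus strand: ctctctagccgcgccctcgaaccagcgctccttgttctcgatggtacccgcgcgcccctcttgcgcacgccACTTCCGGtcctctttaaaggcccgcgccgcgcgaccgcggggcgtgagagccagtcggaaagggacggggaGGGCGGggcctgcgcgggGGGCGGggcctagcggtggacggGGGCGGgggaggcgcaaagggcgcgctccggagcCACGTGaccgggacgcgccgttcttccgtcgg
Snrpe, chr1:133610281-133610530, minus strand: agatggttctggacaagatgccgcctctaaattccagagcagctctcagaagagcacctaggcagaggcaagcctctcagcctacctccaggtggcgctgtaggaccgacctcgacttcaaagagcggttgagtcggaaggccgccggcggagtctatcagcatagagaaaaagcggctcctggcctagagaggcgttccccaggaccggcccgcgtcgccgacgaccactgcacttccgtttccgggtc
Snrpg, chr6:86371290-86371539, plus strand: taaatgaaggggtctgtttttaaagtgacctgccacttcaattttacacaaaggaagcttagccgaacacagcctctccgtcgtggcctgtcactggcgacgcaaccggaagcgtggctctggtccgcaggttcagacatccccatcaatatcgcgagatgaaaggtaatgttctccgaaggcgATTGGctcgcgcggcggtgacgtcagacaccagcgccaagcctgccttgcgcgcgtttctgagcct
The Hnrnpa3 and Hnrnpd stretches both hold GC boxes and 1 E-box, and the last 2 GC boxes of Hnrnpa3 overlap each other. Hnrnpa3 also holds CCAAT on both strands and Hnrnpd an ETS element. Snrpg holds 1 CCAAT box, and none of these letters are in the Snrpe stretch. The RefSeq start of Snrpg lies downstream of the GENCODE start used for the gene's coordinates, so 236 of its 250 bases fall inside the gene as given above, as do 11 of those of Snrpe. A match describes the letters and is not evidence that a factor binds there.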

How the data were processed

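Poly(A) RNA of 4T1 cells, 1 library per condition, was reverse transcribed from random primers and read on a HiSeq2500. The authors deposited FPKM values per gene, rounded to 2 decimals. The submitters' processing notes name Bowtie2 2.2.8 and TopHat2 2.1.1; the quantification tool, genome build and annotation are not given in the sources used here.

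Symbols, coordinates and transcripts were taken from GENCODE M21 (GRCm38), which matched 21848 of 21911 identifiers and need not be the authors' annotation. Length and GC content are means over coding transcripts. Changes were log2((oxalate + 1)/(PBS + 1)), a scale that makes changes of low genes look smaller. Genes averaging 1 FPKM or more were compared. Reads were estimated as FPKM times length in kb over the FPKM that 1 read makes at 1 kb, 0.0176 for PBS and 0.0274 for oxalate. These steps come from genes with 1 transcript shorter than 700 bases and up to 10 reads, where 100% of 81 and 74 values lay within 0.2 of a whole number. For genes with several transcripts the read numbers rest on the mean length, and so do their exact intervals. A 50-base window was counted as shared when it occurs in a transcript of another gene; the read length is not given in the sources used here.

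Members, lists, motifs and thresholds were chosen with earlier results of these data known. Named were the 5 highest genes of each class by mean FPKM, every gene changed at least 1.2-fold, the extremes of each class, genes below a mean FPKM of 1, and of the other splicing genes the extremes of each group. The remaining members are given so that each is accounted for. Snrnp70 was added beside the U1 genes after its value was seen. Motifs and skipped exons were chosen after the values were seen. Other pseudocounts, filters, thresholds and a rescaling were tried. The scripts were tested on simulated data. A planned count of RS, SR and RGG in the proteins was not made. Computation was in Python 3.11.15 with scipy 1.17.1, pandas 2.3.3 and numpy 2.4.6, and plotting with matplotlib 3.10.9.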

Additional observations from a re-analysis of the deposited data

How the results depend on the processing

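No paired analysis was possible because PBS and oxalate are single libraries, and none could be left out. The 1 member changed at least 2-fold became 2 at 1.5-fold and 4 at 1.2-fold, as a lower threshold admits more genes; it stayed 1 with pseudocounts of 0.1 and 0.001, without the filter, with a minimum of 5 FPKM and after rescaling. The mean in place of the median gave -0.14 for the hnRNPs, against a median of -0.060, since Hnrnpa3 and Hnrnpd weigh on a mean. All class values stayed below 0 under the alternatives run, but their order changed. The medians were lowest for Snrp proteins and nearest to 0 for SF3 subunits, whereas the means were lowest for hnRNPs (-0.12 for Snrp proteins) and nearest to 0 for SR proteins (-0.066, against -0.068 for SF3 subunits). Within GC bins, chosen after seeing the data, the SR median went from -0.073 to -0.035 and that of SF3 subunits from -0.048 to -0.082; no other alternative moved the SR, SF3 or Snrp value by over 1.5 times. Of 153 alternative values of single genes 151 moved by less than their counting half-width and kept their sign. After rescaling by the median of all genes (0.0034), Hnrnpk went to -0.0001 and Snrpa1 to -0.0019, from 0.003 and 0.001. The member with the fewest estimated reads, Snrpe, held 732 with oxalate and had a half-width of 0.129. It was not among the lowest by FPKM (59.11 with PBS and 45.53 with oxalate). Its read number rests on a mean coding length of 441 bases.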

Other observations

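Beside the Sm ring, the related ring of U6 and the proteins that assemble snRNPs were read from the same libraries. Of Lsm2 to Lsm8 6 of 7 genes were below PBS, and their median log2 fold change was -0.082. Their median transcript length was 680 bases. Among all expressed genes the bin of the shortest, up to 963 bases, had a median of -0.056. The part of length in the Lsm changes was not tested. Lsm8, Lsm7 (23.52 and 19.64 FPKM, -0.25) and Lsm5 (22.45 and 19.1 FPKM, -0.22) were the farthest below PBS, and Lsm4 was higher, at 210.19 and 230.46 FPKM (0.13). The Lsm genes were singled out after their values were seen. The snRNP assembly genes were lower in 4 of 10, with a median of 0.083. Smn1, which loads the Sm ring onto snRNA, was at 136.56 and 127.68 FPKM (-0.096). Prmt5, which methylates Sm proteins, was at 134.74 and 150.97 FPKM (0.16), and its partners Wdr77 (103.83 and 113.03) and Clns1a (60.05 and 66.17) were also higher. Gemin8 was the largest rise of the group at 3.34 and 3.87 FPKM (0.17) and Gemin2 the largest fall at 7.41 and 6.68 (-0.13). The counting intervals of Gemin8 (-0.071 to 0.49) and Gemin2 (-0.333 to 0.035) both held 0. All rest on single libraries.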
